A study of Homo sapiens with 6 samples.

Results

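Messenger RNA of 10 genes for collagen hydroxylases and folding helpers was measured in LX-2, an established line of human hepatic stellate cells. Stellate cells store vitamin A in healthy liver and become the collagen-secreting myofibroblasts of scar tissue. The genes were P4HA1, P4HA2, P4HA3, P4HB, PLOD1, PLOD2, PLOD3, SERPINH1, CRTAP and COLGALT1, taken by symbol from the 16907 gene symbols in the count files. Cells in medium with 5% fetal bovine serum had received 20 nM of a small interfering RNA for 72 h, either a control (siControl) or one that targets OGT (siOGT), the O-GlcNAc transferase of the nucleus and cytosol. Each group had 3 libraries, and libraries with the same replicate number form a pair. The study's reagent list gives a commercial negative control siRNA for the control and a pool from another supplier for OGT, so target and reagent cannot be told apart. Both groups were transfected, and no library of untransfected cells was used here.

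Collagen chains are modified in the endoplasmic reticulum while they are being made. Prolyl 4-hydroxylase, an enzyme of catalytic alpha subunits (P4HA1, P4HA2 or P4HA3) and the protein disulphide isomerase P4HB, hydroxylates prolines so that the triple helix is stable at body temperature. Lysyl hydroxylases (PLOD1, PLOD2 and PLOD3) prepare lysines for cross-links and for the sugars that COLGALT1 attaches. CRTAP belongs to the prolyl 3-hydroxylase complex, and SERPINH1, also called HSP47, is a chaperone that binds folded procollagen. Type I collagen, whose major chain is encoded by COL1A1, is the chief client of this machinery in scarred liver.

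Silencing of OGT was checked first. Its level was 177, 137 and 121 CPM (counts scaled to library size and composition) in siControl and 39.95, 26.97 and 29.17 CPM in siOGT, and edgeR gave a log2 fold change of -2.18 (SE 0.073, adjusted p-value 2.712e-12). The libraries held 25996770 to 27966801 expected counts. Stellate cell markers summed to 6368 to 7581 CPM in siControl and 5818 to 6699 CPM in siOGT. Of these 11 markers DES, LRAT and LUM were below 1 CPM and DCN had no row, whereas COL1A1, VIM and PDGFRB were expressed. Of the 9 stellate markers tested, 4 fell and 1 rose. Beside COL1A1 and COL1A2, PDGFRB (log2 fold change -0.32, adjusted p-value 0.00473) and THY1 (-0.41, adjusted p-value 2.148e-04) fell, and TAGLN rose (0.37, adjusted p-value 0.00362). ACTA2, which the study used as its marker of myofibroblastic stellate cells, had 6.55 CPM in siControl and 7.58 CPM in siOGT. It was not called (log2 fold change 0.25, edgeR adjusted p-value 0.2995). Epithelial EPCAM, KRT19 and CDH1, hepatocyte ALB, APOA1 and FGB, endothelial KDR and leukocyte PTPRC and LYZ were also below 1 CPM. In the list of cholangiocyte and epithelial markers, SOX9 (105 CPM in siControl and 106 CPM in siOGT) and KRT7 (7.17 and 5.81 CPM) were expressed. Most of the sum given below for this cholangiocyte list was SOX9. The summed macrophage list ranged from 132 to 164 CPM in siControl and from 178 to 209 CPM in siOGT. Most of this sum was CD68, a lysosomal protein (137 CPM in siControl and 188 CPM in siOGT), which rose, whereas CD14 (6.96 and 5.84 CPM) and CSF1R (1.17 and 0.842 CPM) were not called and were lower in all 3 pairs. The hepatocyte list summed to 3.40 to 4.52 CPM and 3.34 to 3.67 CPM, the endothelial list to 3.29 to 7.86 CPM and 3.00 to 5.87 CPM, and the cholangiocyte list to 88.7 to 128 CPM and 91.4 to 129 CPM, so that the ranges of these 3 lists overlapped. Endothelial VWF alone of their genes was called, from 2.60 to 1.35 CPM (log2 fold change -0.93, adjusted p-value 0.0108). The part of such cells or of CD68 in the values below was not tested. Amounts are relative to all RNA of a library, so a change in cell number or in total RNA per cell would not show in them.

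The promoters of 5 of the genes are shown because their transcripts moved differently within a family, or because the gene carries the heat shock element for which it is known. Each is the 250 bases before the RefSeq transcription start on GRCh38.p14, and 9 of the 10 genes had an entry, P4HA3 being the exception. The 6 motifs were searched on both strands, and capitals mark every match. They were the GC box GGGCGG, the CCAAT box, the TATA box TATAAA, the heat shock element core GAANNTTC, the hypoxia response core ACGTG and the TEAD motif CATTCC. P4HA1 lies at chr10:73096867-73097116 (minus strand), P4HA2 at chr5:132227092-132227341 (minus), PLOD1 at chr1:11934467-11934716 (plus), PLOD3 at chr7:101217582-101217831 (minus) and SERPINH1 at chr11:75562003-75562252 (plus, the first of 2 RefSeq starts).
P4HA1: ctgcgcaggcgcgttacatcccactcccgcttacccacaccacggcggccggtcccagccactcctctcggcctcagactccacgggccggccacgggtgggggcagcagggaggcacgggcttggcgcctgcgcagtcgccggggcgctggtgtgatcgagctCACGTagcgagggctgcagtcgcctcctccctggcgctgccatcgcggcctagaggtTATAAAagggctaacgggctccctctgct
P4HA2: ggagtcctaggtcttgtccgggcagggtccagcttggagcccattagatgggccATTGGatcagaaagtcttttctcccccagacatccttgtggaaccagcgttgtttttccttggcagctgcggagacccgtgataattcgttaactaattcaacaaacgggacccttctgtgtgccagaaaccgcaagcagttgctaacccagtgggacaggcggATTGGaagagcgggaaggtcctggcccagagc
PLOD1: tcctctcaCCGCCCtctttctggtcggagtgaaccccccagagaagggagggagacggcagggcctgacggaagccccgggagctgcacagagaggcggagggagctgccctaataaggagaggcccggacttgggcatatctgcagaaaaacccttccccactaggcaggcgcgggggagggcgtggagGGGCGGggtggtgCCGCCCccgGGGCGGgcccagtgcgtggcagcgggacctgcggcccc
PLOD3: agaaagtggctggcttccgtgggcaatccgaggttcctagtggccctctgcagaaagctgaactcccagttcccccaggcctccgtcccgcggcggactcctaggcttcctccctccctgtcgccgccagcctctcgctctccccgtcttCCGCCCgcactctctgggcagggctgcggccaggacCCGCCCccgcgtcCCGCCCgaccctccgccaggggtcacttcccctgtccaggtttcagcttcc
SERPINH1: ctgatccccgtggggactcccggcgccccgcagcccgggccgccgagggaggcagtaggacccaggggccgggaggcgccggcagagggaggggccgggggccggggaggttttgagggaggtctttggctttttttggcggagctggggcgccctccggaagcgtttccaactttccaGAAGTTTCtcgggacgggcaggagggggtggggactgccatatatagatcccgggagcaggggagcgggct

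In these windows the 2 alpha subunit promoters shared no motif. That of P4HA1 held 1 TATA box, 29 bases before the start, and 1 hypoxia core. That of P4HA2 held 2 CCAAT boxes, both read on the opposite strand (printed as ATTGG). Some annotated genes start upstream of their windows, namely P4HA2 at 132295315 (minus strand), PLOD1 at 11934205 (plus) and PLOD3 at 101218420 (minus). Sequence before those starts was not searched. The annotated starts of P4HA1 (73096974) and SERPINH1 (75562056) lie inside their windows. PLOD1 and PLOD3 were alike in having only GC boxes, 4 and 3 of them. The SERPINH1 window held the heat shock core 71 bases before the start and none of the other motifs. Over the first entry of the 9 genes, the GC box was found in 6, CCAAT in 3, TATAAA in 2, ACGTG in 2, GAANNTTC in 1 and CATTCC in 0, against 42.6%, 32%, 10.7%, 18.5%, 5.78% and 11.9% of 35116 RefSeq windows of the same length. A match is a string of letters and not a bound site.

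Of the 10 genes, 2 fell in siOGT and none rose. The 2 were PLOD1, which makes hydroxylysine in the helix of fibrillar collagens, and P4HA2, an alternative catalytic subunit of prolyl 4-hydroxylase. COL1A1 fell in the same libraries. PLOD1 fell by 18.7%, P4HA2 fell by 21.1% and COL1A1 fell by 23.8%, from the fitted log2 fold changes. All 10 genes passed the filter on low counts, and 9 had a mean of at least 1 CPM. Calls are made at an edgeR adjusted p-value up to 0.05, which 12.7% of the 14853 tested genes reached with lower and 12.7% with higher values. The 20.0% of the members called lower is a count of 2 genes. For the direction in which none was called, 1 member had p up to 0.05 before adjustment in edgeR, and DESeq2 called 0 members higher too. DESeq2 with the pairs kept called 2 members lower, beside 10.3% of all genes lower and 8.90% higher. The median log2 fold change was -0.09 over the 10 members and 0.01 over all genes tested. All 3 pairs were lower in 5 members, and 2 were higher in all 3, while 26.6% and 27.4% of all genes did so. In edgeR both calls depended on the pairing and on replicate 1, as given with each gene below. Without the pairing edgeR called 0 members in either direction (1 lower and 0 higher before adjustment), beside 0.397% of all genes lower and 0.478% higher, and DESeq2 called PLOD1 alone, beside 3.67% lower and 3.09% higher. Scaling by library totals alone left the 2 calls in place and moved the share of all genes called to 10.9% lower and 14.2% higher.

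**Figure D1:**
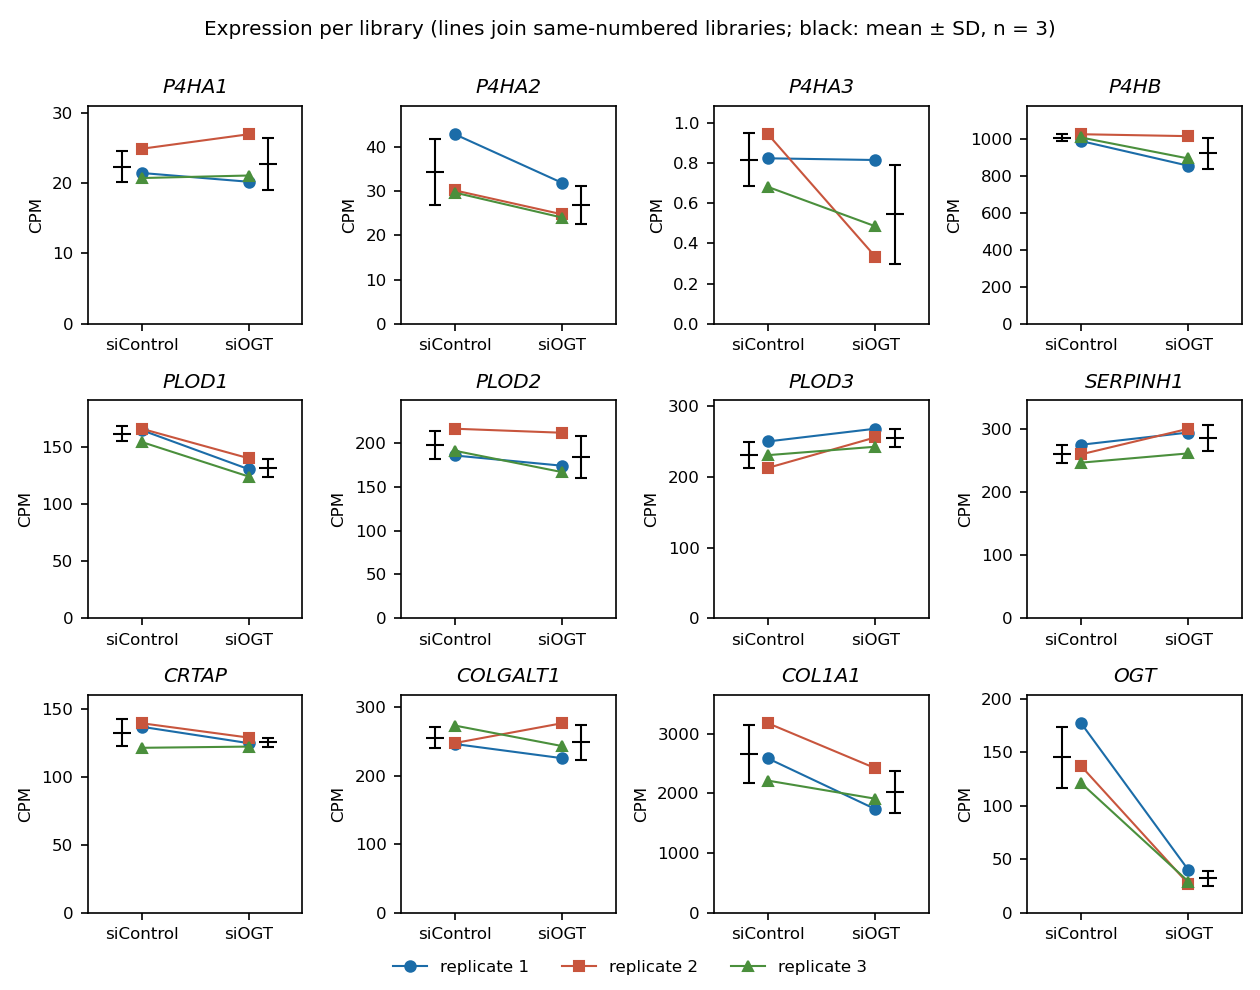
Expression of the 10 genes, COL1A1 and OGT in each of the 6 libraries, in CPM on axes that start at 0. Coloured symbols are replicates 1 to 3, lines join the libraries of a pair, and black marks give the mean and SD of each group. All 3 lines descend in PLOD1, P4HA2, COL1A1 and OGT, whereas those of PLOD3 and SERPINH1 ascend slightly.

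Among the 4 subunits of prolyl 4-hydroxylase, P4HA2 (chromosome 5, 132190147 to 132295315, minus strand, hg38) fell. It had 42.9, 30.2 and 29.7 CPM in siControl replicates 1 to 3 and 31.9, 24.8 and 24.0 CPM in siOGT. Replicate 1 was the highest in both groups. The groups overlapped because siOGT 1 stood above siControl 2 and siControl 3, but each siOGT library was below its own partner. The log2 ratios within the pairs were -0.43, -0.29 and -0.30. The means were 34.2 ± 7.48 and 26.9 ± 4.34 CPM (SD, n = 3 each), with a log2 fold change of -0.34 (SE 0.075, 95% confidence interval -0.50 to -0.18, edgeR adjusted p-value 0.00303). Of the variance of its log2 CPM, 60.6% went with the replicate number and 38.1% with the group. Without the pairing the adjusted p-value was 0.307, and without replicate 1 it was 0.0621. Its expected counts were not whole, which means that some of its reads were shared out between genes.

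P4HA1 (chromosome 10, 73007217 to 73096974, minus strand), the major alpha subunit in many cells, stayed near its siControl level. It had 21.4, 24.9 and 20.7 CPM in siControl and 20.2, 26.9 and 21.1 CPM in siOGT, with replicate 2 the highest in both groups. The log2 fold change was 0.02 (95% confidence interval -0.15 to 0.19, adjusted p-value 0.893), and the replicate number carried 92.3% of the variance. The interval excludes a loss as large as the one fitted for P4HA2.

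P4HA3 (chromosome 11, 74235801 to 74311640, minus strand), the rarest of the alpha subunits, had only 22, 24 and 19 counts in siControl and 22, 9 and 13 counts in siOGT. Its mean of 0.68 CPM was the only one below 1 CPM. A log2 fold change of -0.61 had an SE of 0.427 and an interval of -1.50 to 0.29, so a difference was not detectable at this depth.

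P4HB (chromosome 17, 81843159 to 81860856, minus strand), the beta subunit that also works as a free disulphide isomerase, was the most abundant member. It had 987, 1024 and 1006.5 CPM in siControl and 854, 1014 and 893 CPM in siOGT. All 3 pairs were lower, by -0.21, -0.01 and -0.17 on the log2 scale, yet siOGT 2 lay within the siControl range. The log2 fold change of -0.13 (SE 0.069) was not called, with an adjusted p-value of 0.173.

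Of the 3 lysyl hydroxylases PLOD1 fell, PLOD2 did not pass the test and PLOD3 had higher values. PLOD1 (chromosome 1, 11934205 to 11975538, plus strand) had 4402, 4224 and 4306 counts in siControl and 3523, 3769 and 3325 counts in siOGT, that is, 165, 166 and 154 CPM against 130, 140 and 124 CPM. It was the only member whose groups did not overlap, and 11.8% of all genes were lower and 12.1% higher without overlap. The means were 162 ± 6.40 and 132 ± 8.07 CPM (SD, n = 3 each). The pairs differed by -0.34, -0.24 and -0.31, and edgeR fitted a log2 fold change of -0.30 (SE 0.064, 95% confidence interval -0.43 to -0.16, adjusted p-value 0.00235). The group carried 85.8% of its variance and the replicate number 12.8%, the highest share of the group among the 10 genes. The adjusted p-value was 0.128 without the pairing in edgeR, 0.0394 without it in DESeq2, and 0.0575 without replicate 1.

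PLOD2 (chromosome 3, 146035139 to 146163725, minus strand), the enzyme that hydroxylates the telopeptide lysines used in fibrotic cross-links, had 186, 217 and 192 CPM in siControl and 174, 212 and 167 CPM in siOGT. Replicate 2 was the highest in both groups, and the replicate number carried 78.3% of the variance. The pairs were -0.09, -0.03 and -0.20, and the log2 fold change of -0.11 (95% confidence interval -0.24 to 0.03) was not called (adjusted p-value 0.253).

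PLOD3 (chromosome 7, 101205977 to 101218420, minus strand), which hydroxylates lysine and can also transfer sugars, had 250, 213 and 231 CPM in siControl and 268, 256 and 243 CPM in siOGT. The pairs were 0.10, 0.27 and 0.07, and siControl 1 lay above siOGT 3. The log2 fold change of 0.15 (SE 0.067, 95% confidence interval 0.01 to 0.29) had an unadjusted p-value of 0.0420 and an adjusted p-value of 0.12 from edgeR, and was not called.

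SERPINH1 (chromosome 11, 75562056 to 75572783, plus strand), the collagen-specific chaperone, was not lower with its client. It had 275, 260 and 247 CPM in siControl and 294, 300.5 and 261 CPM in siOGT, with all 3 pairs higher (0.10, 0.21 and 0.08). A log2 fold change of 0.13 was fitted (SE 0.065, 95% confidence interval -0.01 to 0.27, adjusted p-value 0.155). CRTAP (chromosome 3, 33114014 to 33147773, plus strand) had 137, 140 and 121 CPM against 125, 129 and 122 CPM, and its log2 fold change of -0.08 was not called (SE 0.065, adjusted p-value 0.407). COLGALT1 (chromosome 19, 17555649 to 17583162, plus strand) had 246, 247 and 273 CPM against 225, 276 and 243 CPM, with pairs of both signs, and a log2 fold change of -0.05 (SE 0.072, adjusted p-value 0.701). Its expected counts were not whole either.

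**Figure D2:**
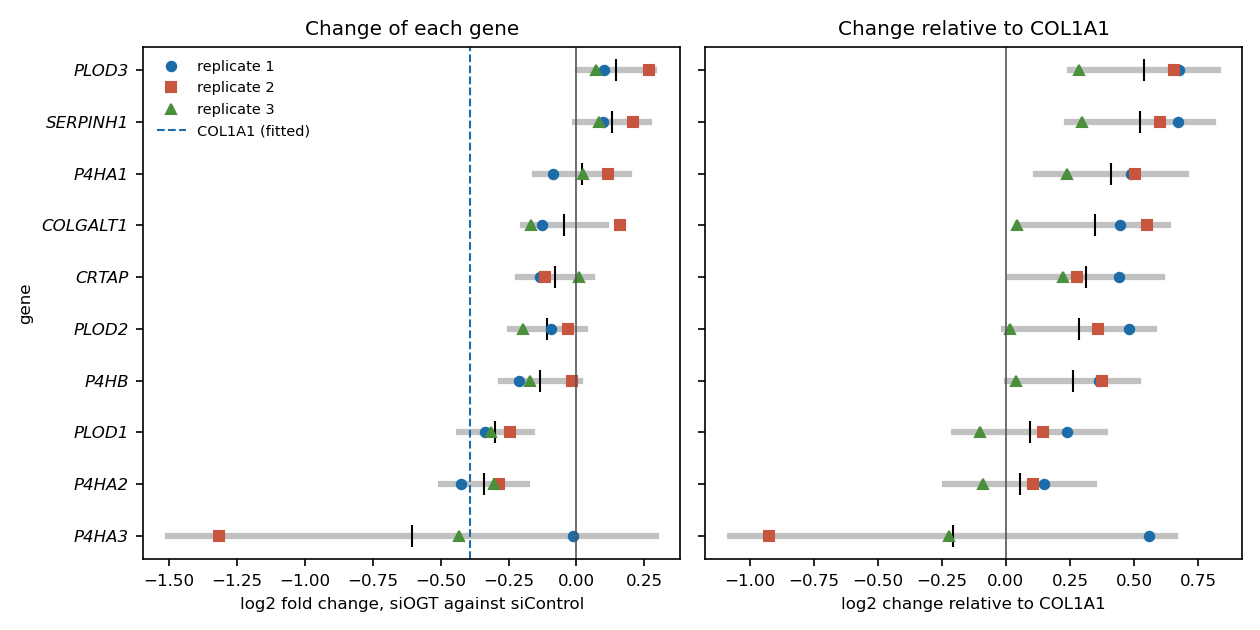
Left, log2 fold change of each member in siOGT against siControl, with the fitted change of COL1A1 as a dashed line, and right, the log2 change of each member relative to COL1A1. Symbols are the 3 pairs, black ticks the fitted change, and grey bars its 95% confidence interval. Among members above 1 CPM, PLOD1 and P4HA2 lie closest to COL1A1, whereas on the right the intervals of PLOD3, SERPINH1, P4HA1, COLGALT1, CRTAP and P4HB lie above 0, of which the first 4 genes were called after adjustment.

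COL1A1 (chromosome 17, 50184101 to 50201632, minus strand) had 2586, 3175 and 2214 CPM in siControl and 1737, 2423 and 1911 CPM in siOGT. The pairs were -0.57, -0.39 and -0.21, and its log2 fold change was -0.39 (SE 0.076, edgeR adjusted p-value 0.00111). This call too was lost without the pairing (adjusted p-value 0.224 in edgeR and 0.118 in DESeq2) and without replicate 1 (0.0893). To test whether the members followed it, each library was scaled by its COL1A1 count, so that the coefficient is the change of the ratio of a gene to COL1A1. In this fit 4 members rose relative to COL1A1 and 0 fell, also 0 before adjustment. The 4 were PLOD3 (log2 change 0.54, SE 0.147, adjusted p-value 0.00134), SERPINH1 (0.52, SE 0.146, adjusted p-value 0.00170), P4HA1 (0.41, SE 0.1501, adjusted p-value 0.0166) and COLGALT1 (0.35, SE 0.146, adjusted p-value 0.0385). In the 3 pairs the ratio of SERPINH1 to COL1A1 moved by 0.67, 0.60 and 0.30, and that of PLOD3 by 0.67, 0.66 and 0.28. All 3 pairs were above COL1A1 in 7 members, but COL1A1 itself fell in each pair, and the share of all genes was not counted.

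The same fit called 48.7% of 14852 genes higher relative to COL1A1 and 0.774% lower. The median change relative to COL1A1 was 0.30 over the members and 0.40 over all genes, so the members' count is near the background. PLOD1 and P4HA2 differed from COL1A1 by 0.09 (95% confidence interval -0.20 to 0.39, adjusted p-value 0.613) and 0.05 (95% confidence interval -0.24 to 0.35, adjusted p-value 0.776). Their intervals reach up to 0.39 and 0.35, beside the log2 fold change of -0.39 of COL1A1, so it is not shown that they moved alike. P4HB, PLOD2 and CRTAP had 0.26, 0.29 and 0.31 with adjusted p-values of 0.0827, 0.0955 and 0.0708, and P4HA3 had -0.21 with 0.709. The count of 4 was 0 without the pairing, 2 without replicate 1, 0 without replicate 2 and 7 without replicate 3. It was 0 with COL1A2, the other chain of type I collagen (own log2 fold change -0.32), as the reference and 7 with COL3A1 (own log2 fold change -0.64).

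Members of a family were then compared with each other in fits scaled by the count of one of them. There were 4 such pairs of genes above 1 CPM, and p-values were adjusted over all genes in each fit. These ratios were chosen after the values were seen, and the adjustment does not cover that choice. PLOD1 fell against PLOD3 by -0.44 on the log2 scale (SE 0.082, 95% confidence interval -0.61 to -0.28, edgeR adjusted p-value 1.337e-04). The pairs were -0.44, -0.51 and -0.39. PLOD2 fell against PLOD3 by -0.25 (SE 0.081, 95% confidence interval -0.42 to -0.09, adjusted p-value 0.0188), with pairs of -0.19, -0.30 and -0.27. In the fit scaled by PLOD3, 24.0% of all genes were called lower. PLOD1 against PLOD2 changed by -0.19 (95% confidence interval -0.34 to -0.05, adjusted p-value 0.0540) and did not pass the test, in a fit in which 5.15% of all genes were called lower. P4HA2 fell against P4HA1 by -0.36 (SE 0.106, 95% confidence interval -0.57 to -0.15, adjusted p-value 0.00779), where 10.4% of all genes were called lower. Its pairs were -0.34, -0.40 and -0.33. Without the pairing these adjusted p-values were 0.0767 for PLOD1 against PLOD3, 0.348 for PLOD2 against PLOD3 and 0.728 for P4HA2 against P4HA1. Leaving out replicate 3 gave 0.0651 for PLOD2 against PLOD3 and 0.144 for P4HA2 against P4HA1, and 0.00505 for PLOD1 against PLOD2, which then was called. Leaving out replicate 1 gave 0.121 for PLOD2 against PLOD3.

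**Figure D3:**
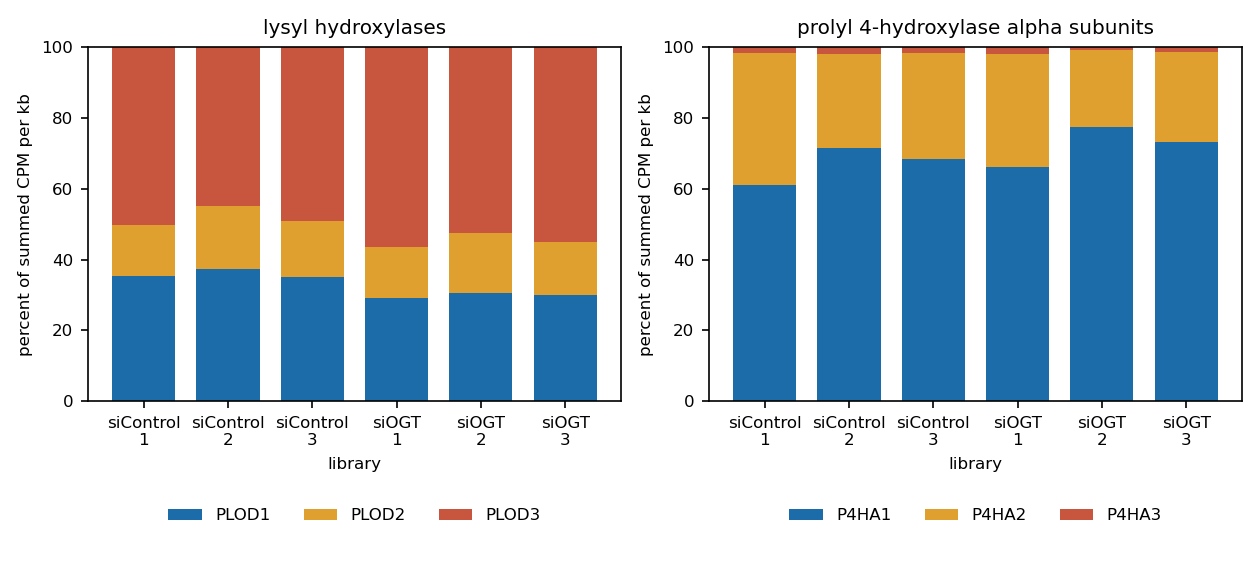
Share of each lysyl hydroxylase (left) and each prolyl 4-hydroxylase alpha subunit (right) in the summed CPM per kilobase of its family, in percent, for the 6 libraries. PLOD1 takes 35.0% to 37.3% in the siControl libraries and 29.3% to 30.6% in the siOGT libraries, and P4HA1 is the larger alpha subunit in every library.

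The make-up of the lysyl hydroxylase transcripts is shown by the plot of family shares, on the scale of CPM per kilobase of all annotated exons. PLOD1 held 35.2%, 37.3% and 35.0% of the summed level in siControl and 29.3%, 30.6% and 30.04% in siOGT. PLOD3 held 50.2%, 44.9% and 49.1% in siControl and 56.4%, 52.4% and 55.1% in siOGT. For either gene the shares of the 2 groups did not overlap. Shares are parts of one sum, so a lower PLOD1 share must raise that of PLOD2, PLOD3 or both. The shifts of PLOD1 and PLOD3 are therefore not separate results. In its own CPM PLOD3 overlapped between the groups (siControl 1 at 250 CPM, siOGT 3 at 243 CPM) and was not called. A background for such shares was not counted. PLOD2 held 16.1% ± 1.64 and 15.4% ± 1.41 (SD, n = 3 each). The sum of the 3 genes was 84.8 ± 2.70 CPM per kilobase in siControl and 82.5 ± 4.38 in siOGT, within the spread between libraries. Of the alpha subunits P4HA1 held 66.9% ± 5.39 in siControl and 72.3% ± 5.78 in siOGT, and P4HA2 held 31.2% ± 5.50 and 26.4% ± 5.12. P4HB exceeded the sum of the alpha subunits 8.402 ± 0.741 times in siControl and 8.16 ± 0.429 times in siOGT. These shares rest on the length used. With the longest transcript in place of all exons, P4HA1 and P4HA2 held 50.35% and 47.67% in siControl, and P4HA2 was the larger in siControl 1, whereas the PLOD1 share was 31.9% in siControl and 26.6% in siOGT.

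Per kilobase of exon, P4HB had the highest level in siControl (90.4 ± 1.66 CPM per kilobase). COLGALT1 (41.8 ± 2.48), SERPINH1 (41.5 ± 2.26) and PLOD3 (40.8 ± 3.30) followed and did not differ beyond their spread. Then came PLOD1 (30.4 ± 1.20), CRTAP (19.9 ± 1.47), PLOD2 (13.6 ± 1.12), P4HA1 (7.22 ± 0.718), P4HA2 (3.38 ± 0.739) and P4HA3 (0.204 ± 0.0329), each apart from its neighbour. By the longest transcript the order of these 3 near-equal genes changed, PLOD2 stood above CRTAP, and P4HA1 (7.85 ± 0.781) and P4HA2 (7.52 ± 1.64) no longer differed beyond their spread. In siOGT SERPINH1 (45.5 ± 3.35) and PLOD3 (45.1 ± 2.25) were listed before COLGALT1 (40.7 ± 4.24), with overlapping spreads, and the order of the other members was the same as in siControl.

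**Figure D4:**
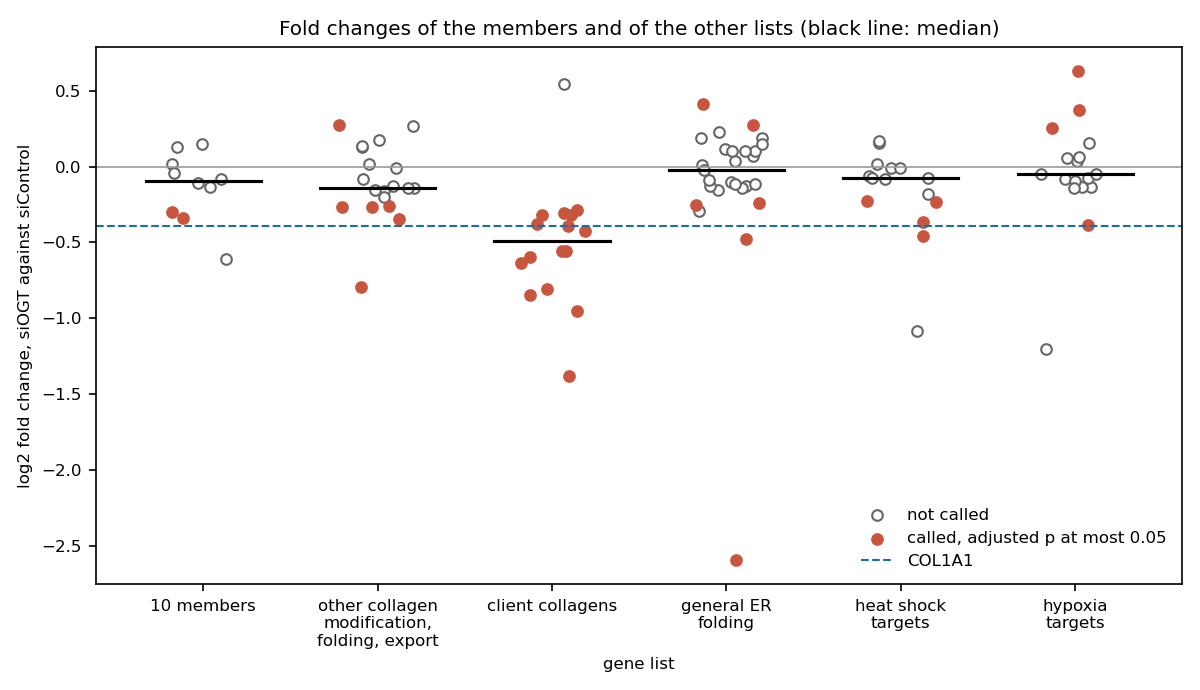
Log2 fold change (siOGT against siControl) of each tested gene in the 10 members and in 5 other gene lists, with filled symbols for called genes (edgeR adjusted p-value up to 0.05) and black lines for medians. The client collagens lie almost entirely below 0, with a median of -0.49, whereas the median of the members is -0.09.

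Most of the listed collagens that these enzymes act on were lower, in a list chosen with earlier results of these data known. Of 16 collagen genes tested, 15 fell in edgeR and 14 in DESeq2 with the pairs kept. In either tool 0 rose, also before adjustment, and the median log2 fold change was -0.49. Of all genes, edgeR called 12.7% lower and DESeq2 with the pairs kept 10.3%. Only COL11A1, with a mean of 0.062 CPM, was not called. The changes reached from -1.38 for COL6A3, a chain of microfibrillar collagen (3.76 ± 0.484 to 1.46 ± 0.488 CPM, adjusted p-value 3.217e-04), to -0.30 for COL4A1, a basement membrane chain (187 ± 38.7 to 152 ± 35.7 CPM, adjusted p-value 0.00419). These 2 are the extremes among called genes with the same sign in all 3 pairs. The count was 2 without the pairing in edgeR and 8 in DESeq2.

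Of 19 other genes for modification, folding and export of collagen, 5 fell, 1 rose and 13 were not called, with a median of -0.14. FKBP9, a peptidyl-prolyl isomerase of the endoplasmic reticulum, fell most, from 60.0 ± 2.09 to 34.9 ± 4.58 CPM (log2 fold change -0.79, SE 0.074, adjusted p-value 1.559e-06). Its relative FKBP10, which assists lysyl hydroxylation of collagen telopeptides, fell from 138 ± 16.7 to 115 ± 7.24 CPM (-0.26, adjusted p-value 0.00722). P3H3, a partner of PLOD1 in lysine hydroxylation, fell from 53.7 ± 2.97 to 44.8 ± 5.36 CPM (-0.27, adjusted p-value 0.0143). CREB3L1, a transcription factor of secretory cells that make collagen, fell by 0.27 on the log2 scale (adjusted p-value 0.0152). The fifth gene, KDELR3, a receptor that returns proteins to the endoplasmic reticulum, was lower in 2 of 3 pairs (-0.34, adjusted p-value 0.0184) and is named because the count is small. TMEM38B, an ion channel of the endoplasmic reticulum, rose from 30.3 ± 1.45 to 36.9 ± 5.96 CPM (0.27, adjusted p-value 0.0236), but was not called by DESeq2 (adjusted p-value 0.0895). P3H1 and PPIB, which form the prolyl 3-hydroxylase complex with CRTAP, had log2 fold changes of 0.02 and -0.01 and were not called. Without replicate 1 the count of 5 was 1 and without replicate 2 it was 3. Without the pairing it was 1 in both tools, and the gene called was FKBP9.

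General folding genes of the endoplasmic reticulum did not move as a block. Of 27 tested, 4 fell and 2 rose, with a median of -0.02. DERL3, a component of the degradation machinery, fell from 3.45 ± 1.02 to 0.570 ± 0.275 CPM (log2 fold change -2.59, adjusted p-value 2.018e-05). DNAJB9, a co-chaperone, rose from 11.6 ± 1.65 to 15.6 ± 4.03 CPM (0.41, adjusted p-value 0.00672). In edgeR DNAJB9 was not called without replicate 1 (adjusted p-value 0.143) or without the pairing (0.276). The others called were SDF2L1, CALR and CRELD2, which fell, and SEL1L, which rose, and they were named for the small count. CRELD2 was not called by DESeq2 (adjusted p-value 0.138), with library totals alone (0.05002) or without any 1 replicate (0.0667 to 0.127), and CALR was not called without replicate 1 (0.193). HSPA5, the main chaperone of this compartment, was not called (-0.13, adjusted p-value 0.166).

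Because SERPINH1 is a known target of heat shock factor and P4HA1, P4HA2 and PLOD2 are known targets of hypoxia-inducible factor, genes of both responses were listed. Of 15 heat shock targets 4 fell and 0 rose (1 before adjustment, and 0 in DESeq2), with a median of -0.08. HSPA1A fell from 262 ± 9.67 to 192.5 ± 29.6 CPM (-0.46, adjusted p-value 1.888e-04) and its near-identical copy HSPA1B by 0.36 on the log2 scale. HSPA1B was not called by DESeq2 (adjusted p-value 0.206), and without replicate 3 its log2 fold change was -0.16 (adjusted p-value 0.0975). Reads of the 2 copies are divided between them, so each value alone is uncertain. HSPA8 (-0.22, adjusted p-value 0.0289) and BAG3 (-0.23, adjusted p-value 0.0129) were the others. In edgeR HSPA8 was not called without replicate 1 (adjusted p-value 0.341) or without replicate 3 (0.0651). SERPINH1 itself had values in the other direction, given above. Of 17 hypoxia targets tested, 1 fell and 3 rose, with a median of -0.05. PGK1, a glycolytic enzyme, fell from 272 ± 12.3 to 208 ± 10.3 CPM (-0.39, adjusted p-value 3.308e-04), while KDM3A, a histone demethylase, rose from 38.5 ± 3.73 to 59.9 ± 10.3 CPM (0.63, adjusted p-value 1.136e-05). VEGFA (0.37) and SLC2A1 (0.25) were also called higher, though not without replicate 1 (adjusted p-values 0.0513 and 0.0717). The lists overlap with no member, and their counts stand beside the 12.7% of all genes called in each direction.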

How the data were processed

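RNA of LX-2 cells from 3 siControl and 3 siOGT libraries was analysed, grouped and numbered by their labels. The study's methods state that the authors enriched polyadenylated RNA, aligned paired reads to hg38 with Bowtie2 2.3.5.1 and counted them with RSEM 1.3.1. The RSEM setting that they list is the one for stranded libraries. The values deposited by the authors are expected counts per gene, which are estimated counts without normalization in which shared reads are divided between genes (per library, 85.8% to 87.7% were whole numbers). The methods name a GENCODE annotation of GRCh38 by its release label, and GENCODE 44, used here for coordinates and lengths, may differ from it. A further deposited table, with fold changes and p-values of the authors' DESeq2 1.36.0 comparison, was not used.

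Expected counts were rounded. A total of at least 10 was required, which 14853 genes met and 2054 genes, holding 0.00447% of the counts, did not. Libraries were scaled by TMM (factors 0.979 to 1.02) and tested in R 4.3.3 with edgeR 4.0.16 (two-sided quasi-likelihood F test), in a model of group and replicate block. Benjamini-Hochberg adjustment ran over all tested genes, with a threshold of 0.05. DESeq2 1.42.0 was an alternative. In it 12549 genes had an adjusted p-value. CPM values use the TMM scaling, log2 ratios within a pair a prior count of 2, and errors of means are SD. SE and 95% intervals were derived from the F statistic. For changes relative to one gene, that gene's count replaced the library size. Scripts were tested on simulated data.

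The replicate numbers were taken as pairs, since the study paired siOGT and siControl by replicate, and deviations from group means over 12373 genes correlated between same-numbered libraries by 0.688, 0.525 and 0.332 (across genes, which are not independent replicates). Replicates of a group differed beyond counting noise, with a chi-square per degree of freedom of at least 19.4. The labels call the replicates biological.

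The members and lists were chosen with earlier results of these data known. Named genes were the 10 members, COL1A1 and OGT, the lowest and highest called gene of each list (mean of 1 CPM or more, 3 pairs of equal sign), and every such gene of the other collagen modification list. The ratios within families were chosen after the values were seen. Coordinates and lengths come from GENCODE 44 on hg38. Exons of 6 members overlap genes on the opposite strand, by at most 5.41% of their length (P4HA2), and counting was strand-specific. Promoters are from RefSeq (GRCh38.p14).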

Additional observations from a re-analysis of the deposited data

How the results depend on the processing

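Median-ratio size factors, library totals alone, filterByExpr and no filter on low counts kept the direction of each member's log2 fold change and left 2 members called lower and 0 higher. The pairing mattered most. With the replicate block DESeq2 called 2415 genes in all, whereas edgeR without the replicate block called 130 and DESeq2 without it 849 (the last chosen after seeing the data), against 3766 in the analysis reported. Members called lower were then 0 in edgeR and 1 in DESeq2. Without the block, in edgeR and DESeq2 in turn, the genes called lower were 1 and 1 of the other collagen modification list, 2 and 8 of the client collagens, 1 and 2 of the general folding genes, 0 and 1 of the heat shock targets, and those called higher 0 and 0 of the collagen modification list, 0 and 0 of the folding genes and 0 and 1 of the hypoxia targets. Hypoxia targets called lower were 0 without the block in edgeR. DESeq2 with the block called 0 of the collagen modification list higher. The members higher relative to COL1A1 were 0 without the block, 0 with COL1A2 and 7 with COL3A1 as the reference.

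Leaving out 1 replicate gave 0 to 2 members lower, 1803 to 3439 genes called in all, 0 to 7 members higher relative to COL1A1, 1 to 5 lower and 0 to 1 higher in the collagen modification list, 11 to 15 lower client collagens, 2 to 4 lower and 1 to 3 higher folding genes, 2 to 3 lower and 0 to 1 higher heat shock targets, and 1 to 2 lower and 1 to 3 higher hypoxia targets. The lowest counts mostly came without replicate 1, and the cause was not tested. Signs that turned belonged to values that were not called. Leaving out 1 replicate gave P4HA1 -0.033 to 0.069, COLGALT1 -0.150 to 0.0102 and, relative to COL1A1, P4HA3 -0.67 to 0.17. Relative to the reference collagen, P4HA2 had -0.0157 with COL1A2 and P4HA3 had 0.0399 with COL3A1. Levels per kilobase of 8 of the 10 members moved by more than 1 SD when the longest transcript replaced all exons. With 3 libraries per group and changes of about 0.3 on the log2 scale, calls lie near the threshold, and P4HA3 is limited by its 9 to 24 counts per library.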
